A study of Homo sapiens with 12 samples.

Results

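Ribosome biogenesis genes and genes of RNA polymerase I were examined in A2058, an established human melanoma line, across 4 treatment groups of 3 arrays. The genes were taken by symbol: names beginning with NOP, RRP, UTP or NOL and a digit, with POLR1 or with GNL2 or GNL3, together with listed DEAD-box helicases, WD-repeat proteins and single nucleolar factors. The pattern found 57 of 14580 measured genes, each with 1 probe set. Of these, 53 have a known role in making ribosomes. The others were NOL4, NOL4L, the divergent transcript NOL4L-DT and RRP7BP, a pseudogene of RRP7A. RRP7BP and RRP7A resemble each other, so their signals may not be separate. Of 20 genes picked by name, 11 were measured, while POLR1A to POLR1D, NPM1, DKC1, NOP56, PES1 and GNL3 were not analysed here, and RNA polymerase I itself was represented by 2 subunits, POLR1F and POLR1H.

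Cells received the solvent DMSO, 100 nM of the RAF inhibitor dabrafenib with 10 nM of the MEK inhibitor trametinib (DT), 1 µM of the class I histone deacetylase inhibitor entinostat (E), or all 3 agents at those doses (DTE). RNA was taken after 24 h of treatment. The titles name biological replicates and the series design technical triplicates, so a p-value here speaks to array-to-array spread alone, and that spread may be purely technical. Levels are log2 intensities as deposited. Array medians over all genes ranged from 4.40 to 4.90 and replicates of a group correlated at 0.990 to 0.995. All 7 measured melanocyte lineage markers lay above the lower quartile of genes in every group, while the 1 measured blood marker and the 1 endothelial marker lay below it in every group. Of 4 measured epithelial markers 2 or 3 lay above it, and of 2 fibroblast markers 1 did, at 7.20 in DMSO and 8.83 in DTE; the part of such signals in the results was not tested. Among the 57 genes, NOL4 alone lay below that quartile, in all 4 groups, and was not shown to rise above background.

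Ribosomes are assembled mainly in the nucleolus. RNA polymerase I transcribes the precursor of the large ribosomal RNAs, the small subunit processome folds and cleaves the small subunit part, box C/D and box H/ACA small nucleolar ribonucleoproteins methylate and pseudouridylate it, and separate sets of GTPases, helicases and scaffold proteins build the large subunit. In many tumour cells this pathway follows growth factor signalling through ERK and MYC.

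The genes had moved together in earlier results of these data, and promoter sequences from RefSeq (GRCh38.p14) were therefore searched. Of the 57 genes, 48 had an entry, with 57 windows of 250 bases before an annotated start. Windows are shown for 5 of the 6 genes with the largest falls under DT, WDR43, WDR3, NOC3L, LTV1 and DDX21, and for NOP10, which holds several matches; RRP12 had no entry. Capitals mark CACGTG, the E-box read by MYC and other factors, and CCGGAAG or its reverse complement CTTCCGG, the core read by ETS factors. Each runs 5′ to 3′ on the gene's strand.
WDR43: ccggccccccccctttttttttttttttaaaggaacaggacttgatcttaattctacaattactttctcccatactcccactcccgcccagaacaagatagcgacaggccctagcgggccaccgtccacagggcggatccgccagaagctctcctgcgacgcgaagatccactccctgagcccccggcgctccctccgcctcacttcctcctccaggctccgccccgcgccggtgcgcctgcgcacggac
WDR3: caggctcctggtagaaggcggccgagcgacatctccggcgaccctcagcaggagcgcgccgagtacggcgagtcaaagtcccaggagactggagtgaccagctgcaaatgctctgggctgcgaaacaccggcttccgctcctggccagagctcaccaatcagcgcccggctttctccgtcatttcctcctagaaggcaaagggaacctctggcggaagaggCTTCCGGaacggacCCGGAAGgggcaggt
NOC3L: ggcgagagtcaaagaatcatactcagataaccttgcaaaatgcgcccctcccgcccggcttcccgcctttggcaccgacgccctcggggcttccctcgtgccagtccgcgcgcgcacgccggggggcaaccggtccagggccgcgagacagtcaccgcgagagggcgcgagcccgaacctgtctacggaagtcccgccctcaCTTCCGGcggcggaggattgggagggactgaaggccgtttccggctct
LTV1: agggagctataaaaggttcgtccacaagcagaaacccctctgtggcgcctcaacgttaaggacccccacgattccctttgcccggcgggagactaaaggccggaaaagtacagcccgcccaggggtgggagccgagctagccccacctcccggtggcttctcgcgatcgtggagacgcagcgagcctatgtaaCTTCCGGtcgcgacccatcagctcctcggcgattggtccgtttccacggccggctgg
DDX21: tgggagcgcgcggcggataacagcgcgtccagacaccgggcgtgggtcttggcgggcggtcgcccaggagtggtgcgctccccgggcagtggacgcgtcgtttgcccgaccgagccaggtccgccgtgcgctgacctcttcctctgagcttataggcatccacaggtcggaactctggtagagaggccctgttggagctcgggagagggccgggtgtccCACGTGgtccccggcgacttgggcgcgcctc
NOP10: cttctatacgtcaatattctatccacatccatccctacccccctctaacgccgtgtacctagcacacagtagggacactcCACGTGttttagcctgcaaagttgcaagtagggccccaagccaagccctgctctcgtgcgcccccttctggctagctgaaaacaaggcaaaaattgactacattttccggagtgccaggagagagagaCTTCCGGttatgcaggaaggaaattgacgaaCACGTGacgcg

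The WDR43 window, chr2:28894417-28894666 on the plus strand, held neither CACGTG nor CCGGAAG. The WDR3 window is chr1:117929489-117929738 (plus), LTV1 chr6:143843088-143843337 (plus), DDX21 chr10:68956397-68956646 (plus, the second of its windows), NOC3L chr10:94362940-94363189 (minus) and NOP10 chr15:34343137-34343386 (minus). The ETS matches began 29 and 15 bases before the start in WDR3, 48 in NOC3L, 57 in LTV1 and 42 in NOP10. The other DDX21 window, not shown, held CCGGAAG 60 bases before its start. The E-boxes began 31 bases before the start in DDX21, and 170 and 11 in NOP10. Over both strands CCGGAAG stood in 28.1% of the windows of these genes and in 11.1% of the 14590 windows of all measured genes. CACGTG stood in 10.5% against 7.61%, and the AP-1 site TGACTCA in 0 of 57 windows against 3.52%. The shorter core CGGAAG, which lies inside CCGGAAG, gave 43.9% against 20.8%, and the ZBTB33 motif CTCGCGAGA 5.26% against 0.80%. The E-box variant CACGCG stood in 17.5% against 13.0%, the GC box GGGCGG in 57.9% against 55.6%, TATAAA in 5.26% against 8.18% and CCAAT in 33.3% against 32.7%. The 16 genes with CCGGAAG had a median log2 change of -0.73 in DT and the 32 with a window but no match -0.63. Splits of similar or larger size came with GGGCGG (-0.69 in 31 genes with it and -0.55 in 17 without), CGGAAG (-0.69 and -0.58) and CCAAT (-0.69 and -0.61). These matches describe letters in the windows, and binding was not measured.

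The median of the 57 genes on each array set the DT and DTE arrays apart from the DMSO and E arrays. It was 7.35, 7.56 and 7.28 in the DMSO replicates, 6.61, 6.87 and 6.61 in DT, 7.23, 7.38 and 7.25 in E, and 6.69, 6.77 and 6.81 in DTE. No DT or DTE array reached the lowest DMSO or E array, and E overlapped DMSO. Measured from the median of all genes on the same array, the 57 genes stood 2.67 to 2.76 higher in DMSO, 2.36 to 2.48 in E, 2.17 to 2.27 in DT and 2.08 to 2.13 in DTE. On that scale no 2 groups overlapped, and E lay below DMSO as well. After quantile normalization the medians of the 57 genes in DTE (6.91, 6.90 and 6.81) overlapped those in DT (6.92, 6.95 and 6.90).

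**Figure D1:**
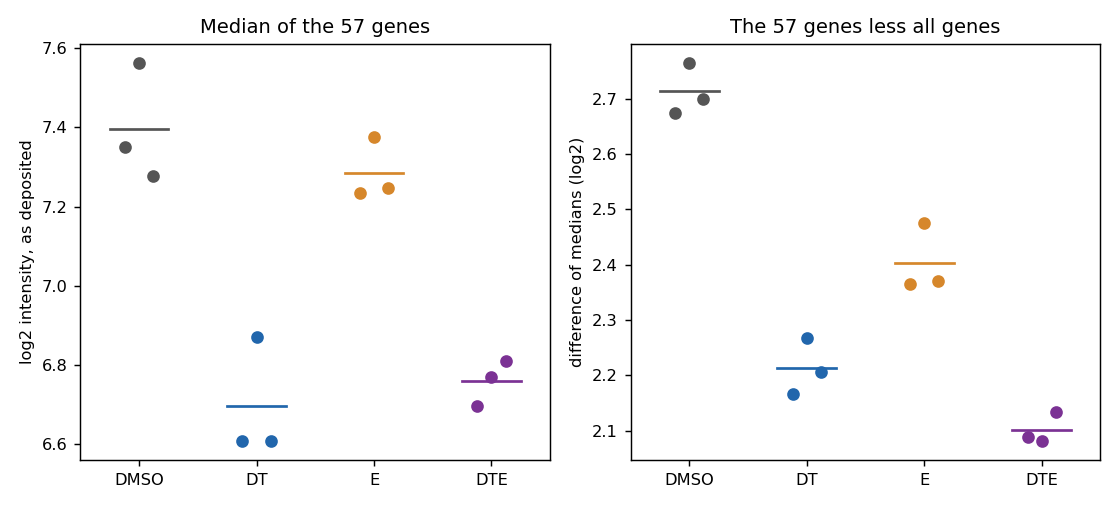
Left, the median log2 intensity of the 57 genes on each of 12 arrays, as deposited; right, the same median less the array's median over all genes. Points are replicates 1 to 3 from left to right and lines are group means; DT and DTE lie below DMSO and E on the left, and the 4 groups are separate on the right.

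DT against DMSO asked what blocking the MAPK pathway did to these genes, and 51 of the 57 fell. The median log2 change was -0.68, against -0.17 over all genes. Of all genes 24.1% were called lower (limma, adjusted p under 0.05 over all genes, as in every comparison). The median level of the 57 genes lay above that of all genes on every array. No median or share over all genes given here was matched for level, so whether equally bright genes fell as often was not tested. None of the 57 was called higher, where 3.23% of all genes were. At an unadjusted p under 0.05 there were also 0 higher, where 4.57% of all genes were. The changes ranged from -1.31 to -0.01, and 6 genes fell at least 2-fold: WDR43, NOC3L, LTV1, DDX21, WDR3 and RRP12. In 52 of the 57 genes all DT arrays lay below all DMSO arrays, a separation found in 34.5% of all genes; none lay wholly above, where 5.48% of all genes did. In bulk RNA, fewer cells that express a gene and less RNA per cell cannot be told apart.

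The size of the fall depended on the scale. After quantile normalization, which gives every array the same distribution, 29 of the 51 calls remained and no call was added, where 7.86% of all genes were called lower and 8.55% higher. The median of the 57 genes was then -0.31 and that of all genes 0.00. After each array was centred on its median, 39 calls remained, with 12% of all genes called lower and 8.08% higher.

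**Figure D2:**
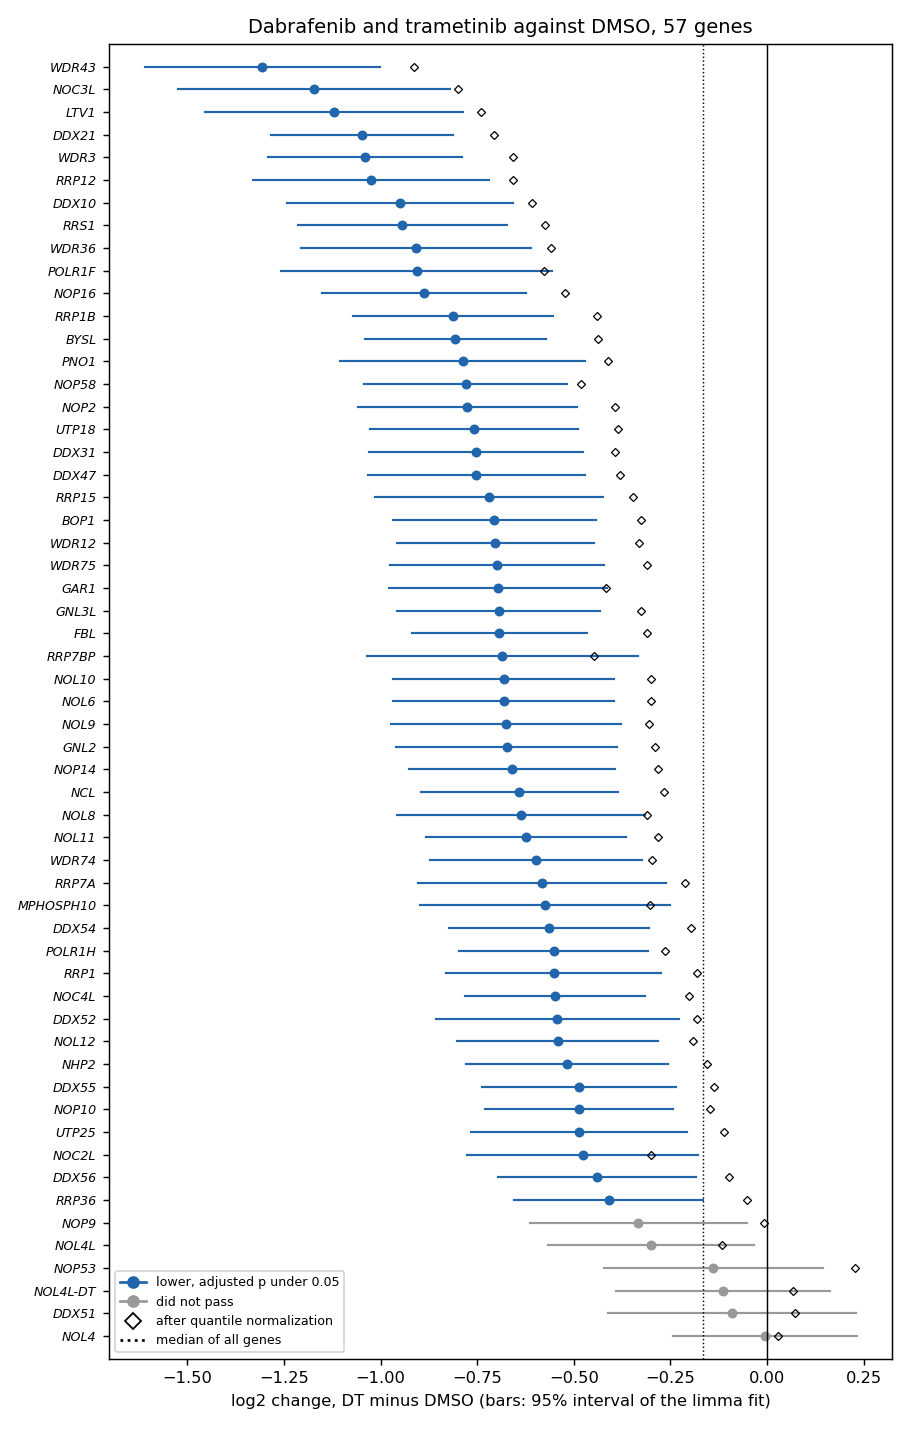
The log2 change in DT against DMSO for the 57 genes, in order of size, with 95% limma intervals (filled points) and the change after quantile normalization (open diamonds). Of the 57 genes 51 are called lower, from WDR43 at -1.31 to RRP36 at -0.41; the dotted line is the median of all genes, -0.17.

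Both RNA polymerase I subunits fell. For POLR1F the log2 intensities of replicates 1 to 3 were 6.25, 6.70 and 6.43 in DMSO, 5.52, 5.72 and 5.42 in DT, 6.37, 6.98 and 6.84 in E and 6.22, 6.33 and 6.66 in DTE. All DT arrays of POLR1F, a stalk subunit, lay below every array of the other groups, a fall of 0.91 from DMSO (SE 0.17, adjusted p = 0.00056). The levels of POLR1H were 5.90, 5.93 and 5.85 (DMSO), 5.32, 5.33 and 5.37 (DT), 5.38, 5.51 and 5.48 (E) and 5.20, 4.87 and 4.88 (DTE). In POLR1H, which helps the enzyme cleave its transcript, DT and E each lay below DMSO and DTE lay lowest. It fell by 0.55 in DT (SE 0.12, adjusted p = 0.0018), a call lost after quantile normalization (-0.26).

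In the small subunit processome all 17 genes fell, with a median of -0.68 (8 after quantile normalization). WDR43 read 7.82, 8.15 and 7.96 in the DMSO arrays, 6.56, 6.87 and 6.57 in DT, 7.78, 7.97 and 7.79 in E and 6.79, 7.11 and 7.32 in DTE. The DT arrays of WDR43, which couples the processome to transcription of rRNA, were the lowest on average; DTE overlapped DT at its lower end and stayed below the DMSO and E arrays. WDR43 fell 2.47-fold in DT, the largest fall of the 57 genes (-1.31, SE 0.14, adjusted p = 2.6e-06). For WDR3 the log2 intensities of replicates 1 to 3 were 8.13, 8.22 and 8.01 in DMSO, 6.95, 7.21 and 7.08 in DT, 8.27, 8.28 and 8.22 in E and 7.61, 7.66 and 7.88 in DTE. WDR3, a scaffold protein of the same particle, fell by 1.04 (SE 0.12, adjusted p = 4.0e-06), and its DTE arrays stood apart both from DT and from DMSO. RRP36, which acts in the early cleavages, had the smallest fall of the group, 0.41 (adjusted p = 0.013), which was lost without DMSO replicate 2 (-0.37) or DT replicate 1 (-0.34) and after quantile normalization (-0.05).

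Of 5 factors that mature the small subunit later, 4 fell, and the same 4 were called after quantile normalization. The levels of LTV1 were 7.98, 8.24 and 8.26 (DMSO), 6.89, 7.34 and 6.89 (DT), 7.79, 8.18 and 7.95 (E) and 7.13, 7.35 and 7.64 (DTE). LTV1, which joins the particle before its last steps, fell 2.17-fold (-1.12, SE 0.16, adjusted p = 4.5e-05), and no DT or DTE array reached the DMSO range. RRP12 read 7.22, 7.59 and 6.99 in the DMSO arrays, 6.13, 6.35 and 6.24 in DT, 7.22, 7.08 and 6.92 in E and 6.36, 6.34 and 6.13 in DTE. RRP12, a factor for export of the particle, fell by 1.03 (SE 0.15, adjusted p = 4.6e-05) with no overlap between DT and DMSO. BYSL, needed to process the small subunit precursor, fell by 0.81 (adjusted p = 3.4e-05), and PNO1, which binds the end of the maturing rRNA, fell by 0.79 (adjusted p = 0.00078). NOP9, an RNA-binding protein, stood at -0.33 (95% interval -0.61 to -0.05, adjusted p = 0.073) and was called without DMSO replicate 3 (-0.43) or DT replicate 2 (-0.40).

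All 5 core proteins of the modifying particles fell, by 0.49 to 0.78, and 3 of them after quantile normalization. For NOP58 the log2 intensities of replicates 1 to 3 were 9.99, 10.10 and 9.90 in DMSO, 9.11, 9.34 and 9.21 in DT, 9.92, 10.07 and 9.98 in E and 9.45, 9.51 and 9.82 in DTE. In NOP58, the scaffold of box C/D particles, DT lay lowest and DTE lay between DT and the other groups. It fell by 0.78 (SE 0.13, adjusted p = 0.00016). The levels of FBL were 8.94, 8.87 and 8.90 (DMSO), 8.16, 8.29 and 8.19 (DT), 8.99, 8.87 and 8.91 (E) and 8.46, 8.33 and 8.38 (DTE). FBL, the methyltransferase fibrillarin, fell by 0.69 (SE 0.11, adjusted p = 0.00011), with DT and DTE both below all DMSO and E arrays. GAR1, of the box H/ACA particles, fell by 0.70 (adjusted p = 0.00082). NOP10, of the same particles, fell by 0.49 (adjusted p = 0.0042), a call lost after quantile normalization (-0.15) and after centring (-0.29).

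In large subunit assembly 19 of 21 genes fell, with a median of -0.67 (10 after quantile normalization). NOC3L read 7.31, 7.60 and 7.54 in the DMSO arrays, 6.12, 6.60 and 6.22 in DT, 7.35, 7.58 and 7.56 in E and 6.97, 7.07 and 7.64 in DTE. NOC3L, a factor of early large subunit particles, fell 2.26-fold in DT (-1.17, SE 0.17, adjusted p = 4.9e-05), and its highest DTE array reached the DMSO range. For BOP1 the log2 intensities of replicates 1 to 3 were 6.98, 7.15 and 6.94 in DMSO, 6.29, 6.36 and 6.30 in DT, 7.32, 7.17 and 7.18 in E and 6.19, 6.30 and 5.88 in DTE. BOP1, of the complex that also holds WDR12, fell by 0.71 (SE 0.12, adjusted p = 0.00041; -0.33 and not called after quantile normalization), and both groups with DT lay below both without it. WDR12 itself fell by 0.70 (adjusted p = 0.00032). RRS1, which brings the 5S rRNA particle into the large subunit, fell by 0.94 (adjusted p = 2.9e-05), and NOP2, an rRNA methyltransferase, by 0.78 (adjusted p = 0.00033).

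The exceptions in that group were NOP53 and DDX51. The levels of NOP53 were 7.66, 7.75 and 7.52 (DMSO), 7.37, 7.61 and 7.54 (DT), 7.26, 7.50 and 7.42 (E) and 7.17, 7.14 and 6.73 (DTE). NOP53, which recruits the exosome to the large subunit precursor, overlapped between DT and DMSO at -0.14 (95% interval -0.42 to 0.15, adjusted p = 0.50). DDX51, a helicase of large subunit processing, stood at -0.09 (95% interval -0.41 to 0.23, adjusted p = 0.72).

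Of the abundant nucleolar proteins and related factors, all 3 fell, also after quantile normalization. DDX21 read 9.90, 9.97 and 9.86 in the DMSO arrays, 8.83, 8.94 and 8.81 in DT, 9.58, 9.61 and 9.51 in E and 8.91, 8.89 and 9.11 in DTE. DDX21, a helicase tied to transcription by RNA polymerases I and II, fell 2.07-fold (-1.05, SE 0.11, adjusted p = 1.6e-06), and its E arrays lay between DMSO and the groups with DT. NCL, which encodes nucleolin, fell by 0.64 (adjusted p = 0.0007) and GNL3L, a nucleolar GTPase, by 0.69 (adjusted p = 0.00047). Of the 4 matches with no known role in ribosome biogenesis, RRP7BP fell by 0.68 (adjusted p = 0.0051; -0.45 and not called after quantile normalization). NOL4L stood at -0.30 (adjusted p = 0.09), NOL4L-DT at -0.11 (adjusted p = 0.58) and NOL4 at -0.01 (adjusted p = 0.98).

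**Figure D3:**
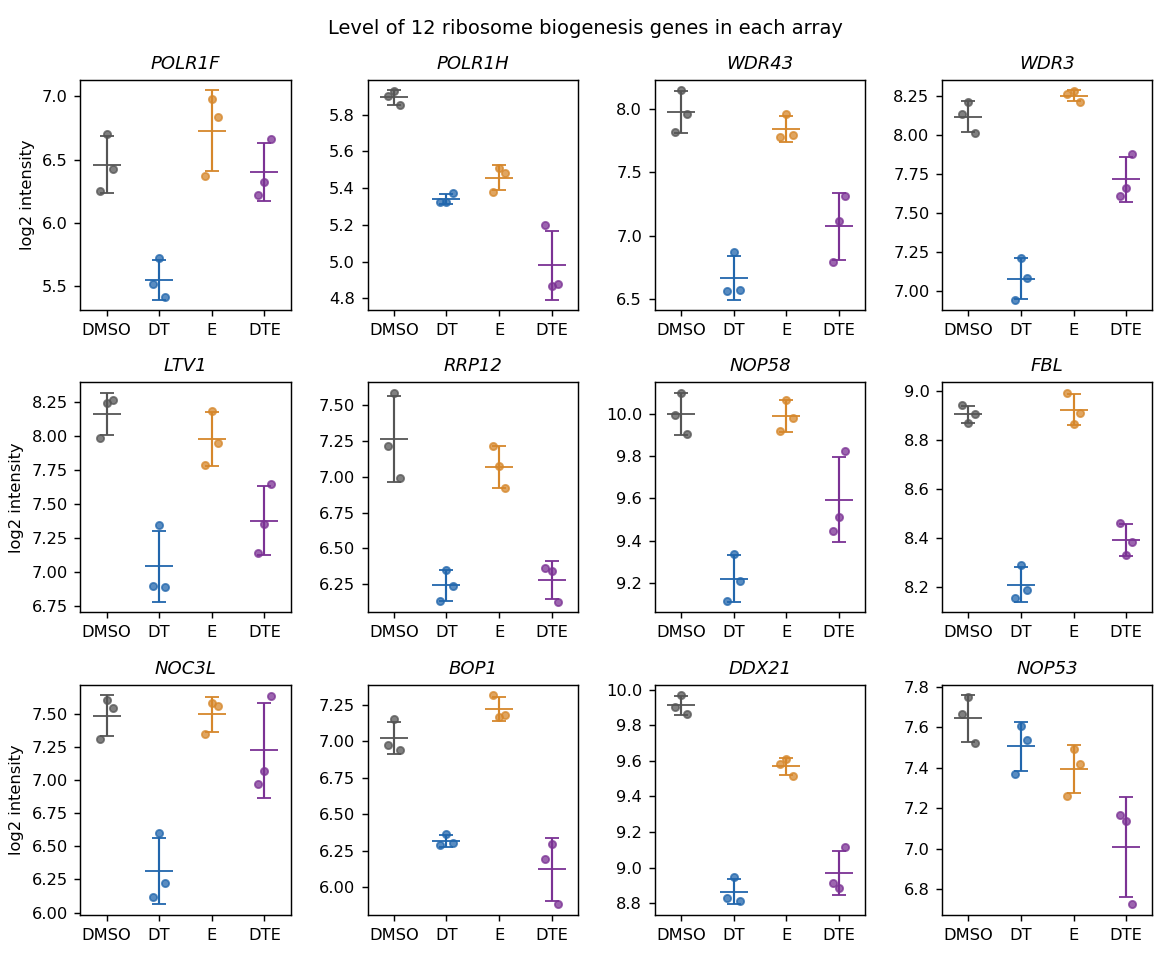
Log2 intensity of 12 of the genes in every array (points, replicates 1 to 3 from left to right), with group means and SD (n = 3); each panel has its own vertical scale. POLR1F and NOC3L are lowest in DT, and DTE replicates 1 and 2 of NOC3L also lie below its DMSO arrays. POLR1H is lowest in DTE, and BOP1 and RRP12 are low in both DT and DTE.

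E against DMSO asked what entinostat did alone, and few of the genes moved. Of the 57 genes 3 fell, where 3.54% of all genes were called lower: WDR74, which takes part in remodelling of large subunit particles, by 0.48 (SE 0.13, adjusted p = 0.015), POLR1H by 0.44 (SE 0.12, adjusted p = 0.015) and DDX21 by 0.34 (SE 0.11, adjusted p = 0.043). None was called higher by limma, although 12.5% of all genes were. At an unadjusted p under 0.05, 1 was higher (1.75%) and 10 lower (17.5%), beside 19.6% and 7.50% of all genes. The median was -0.12 against 0.07 over all genes. The WDR74 arrays read 6.07, 6.22 and 5.75 in DMSO and 5.52, 5.53 and 5.55 in E, without overlap. Over the 57 genes, the E arrays lay wholly below DMSO in 15 (9.95% of all genes) and wholly above in 2 (22.3%).

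These calls changed when single arrays were left out. The call of WDR74 was lost without DMSO replicate 1 (-0.46) or DMSO replicate 2 (-0.38), and that of POLR1H without DMSO replicate 1 (-0.43) or E replicate 1 (-0.40). The call of DDX21 was lost without any of DMSO replicates 1 to 3 (-0.35, -0.31 and -0.37), E replicates 1 to 3 (-0.35, -0.36 and -0.32), DT replicates 1 and 3 or DTE replicate 2 (-0.34 each). GNL3L, at -0.34 (adjusted p = 0.075), was called without DMSO replicate 3 (-0.47). The count was 0 without DMSO replicate 1, and 1 without DMSO replicate 2 or E replicate 1. Scale moved it the other way. After quantile normalization 10 genes were lower, where 8.45% of all genes were (9.67% higher), and after centring 25 were, where 16.3% of all genes were (7.53% higher).

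DTE against DMSO asked what the 3 agents did together. Of the 57 genes 43 fell, with a median of -0.57 against -0.11 over all genes, and 22.5% of all genes were called lower. None was called higher by limma, where 9.64% of all genes were, and 0 at an unadjusted p under 0.05, where 12.2% were. After quantile normalization 29 of these calls remained and none was added, where 14.2% of all genes were lower and 14.2% higher; after centring there were 44, where 23.1% were lower and 11% higher. In 44 genes all DTE arrays lay below all DMSO arrays (28.6% of all genes) and in 0 above (12.6%). The largest falls were in RRP12 (-0.99, SE 0.15, adjusted p = 4.8e-05), DDX21 (-0.94, SE 0.11, adjusted p = 5.0e-06), POLR1H (-0.91, SE 0.12, adjusted p = 1.1e-05), WDR43 (-0.90) and BOP1 (-0.90), each with all DTE arrays below all DMSO arrays. All 5 late small subunit factors fell, NOP9 included (-0.58, SE 0.13, adjusted p = 0.0025). NOP53 fell by 0.63 (SE 0.14, adjusted p = 0.0014), lost after quantile normalization (-0.36).

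Several genes that fell in DT did not pass here. POLR1F stood at -0.06 (95% interval -0.41 to 0.29), WDR75, which belongs to the same part of the processome as WDR43, at -0.13 (-0.41 to 0.15), DDX47, a processome helicase, at -0.12 (-0.40 to 0.16) and NOC3L at -0.26 (-0.61 to 0.09). NOC3L was called without DTE replicate 3 (-0.47). WDR3 fell by 0.40, NOP58 by 0.41 and NCL by 0.39, and all 3 calls were lost without DMSO replicate 2 (-0.36, -0.35 and -0.30), DTE replicate 1 (-0.35, -0.33 and -0.33) or DTE replicate 2 (-0.38, -0.36 and -0.38), and after quantile normalization (-0.12, -0.14 and -0.11).

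DTE against DT asked what entinostat added to dabrafenib and trametinib, and the 57 genes moved about as often as genes at large. Of the 57 genes 9 rose (15.8%) and 2 fell (3.51%), where 13.8% of all genes were called higher and 5.09% lower. The median was 0.10 as deposited, -0.016 after quantile normalization and -0.072 after centring, beside 0.06, -0.03 and -0.11 over all genes. All DTE arrays lay above all DT arrays in 14 genes (21.1% of all genes) and below in 8 (10.6%). NOC3L rose by 0.91 (SE 0.17, adjusted p = 0.00066), POLR1F by 0.85 (SE 0.17, adjusted p = 0.0012), WDR3 by 0.64 (SE 0.12, adjusted p = 0.00076), DDX47 by 0.63 (SE 0.13, adjusted p = 0.0022), WDR75 by 0.57 (SE 0.13, adjusted p = 0.0045) and NOP58 by 0.37 (SE 0.13, adjusted p = 0.044). In each of these all DTE arrays lay above all DT arrays. The remaining rises were 0.50 in DDX10, 0.49 in RRP15 and 0.47 in GNL2, named here after their values were seen.

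The levels of DDX47 were 7.38, 7.59 and 7.42 (DMSO), 6.62, 6.88 and 6.64 (DT), 7.48, 7.42 and 7.61 (E) and 7.16, 7.26 and 7.60 (DTE). WDR75 read 8.68, 9.06 and 8.78 in the DMSO arrays, 8.05, 8.34 and 8.04 in DT, 8.94, 9.07 and 9.05 in E and 8.63, 8.63 and 8.86 in DTE. In both genes DT stood lowest. DTE replicates 1 and 2 lay below all DMSO and E arrays, and DTE replicate 3 alone reached the DMSO range. The processome, with 17 of the 57 genes, held 4 of the 9 rises, and large subunit assembly, with 21, held 3. Over all genes 13.8% rose, and whether the rises gather in a group was not tested. All 9 were called after quantile normalization, where 12.2% of all genes rose, and 5 after centring, where 9.36% did. The calls of DDX10, GNL2, NOP58 and RRP15 were then lost. The rises numbered 6 without DT replicate 1, DT replicate 3 or DTE replicate 3, and 12 without DT replicate 2.

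NOP53 fell by 0.49 (SE 0.14, adjusted p = 0.014) and POLR1H by 0.36 (SE 0.12, adjusted p = 0.038) in DTE against DT, with no overlap of arrays. The 2 measured polymerase I subunits thus moved in opposite directions. The call of NOP53 was lost without DT replicate 2 (-0.44) or DTE replicate 3 (-0.35). That of POLR1H was lost without DT replicates 1 to 3 (-0.37, -0.37 and -0.34), or DTE replicates 2 and 3 (-0.30 and -0.31). The POLR1H call was also lost without DMSO replicate 1 or E replicate 3 (-0.36 each), and with the variance trend and robust estimation. NOP58 lost its call without DT replicate 1 (0.32) or 3 (0.37), DTE replicate 2 (0.41) or 3 (0.26), or DMSO replicate 1, E replicate 1 or E replicate 3 (0.37 each). WDR43, at 0.40 (adjusted p = 0.06), was called without DT replicate 2 (0.50) or DTE replicate 1 (0.55). LTV1, at 0.34 (adjusted p = 0.17), was called without DT replicate 2 (0.49), and RRP7BP, at 0.38 (adjusted p = 0.14), without DTE replicate 3 (0.55). After quantile normalization 8 genes were lower, where 12% of all genes were (14 after centring, where 15.4% were), among them NOP53 (-0.59), POLR1H (-0.52), NOP9 (-0.38) and WDR74 (-0.35).

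**Figure D4:**
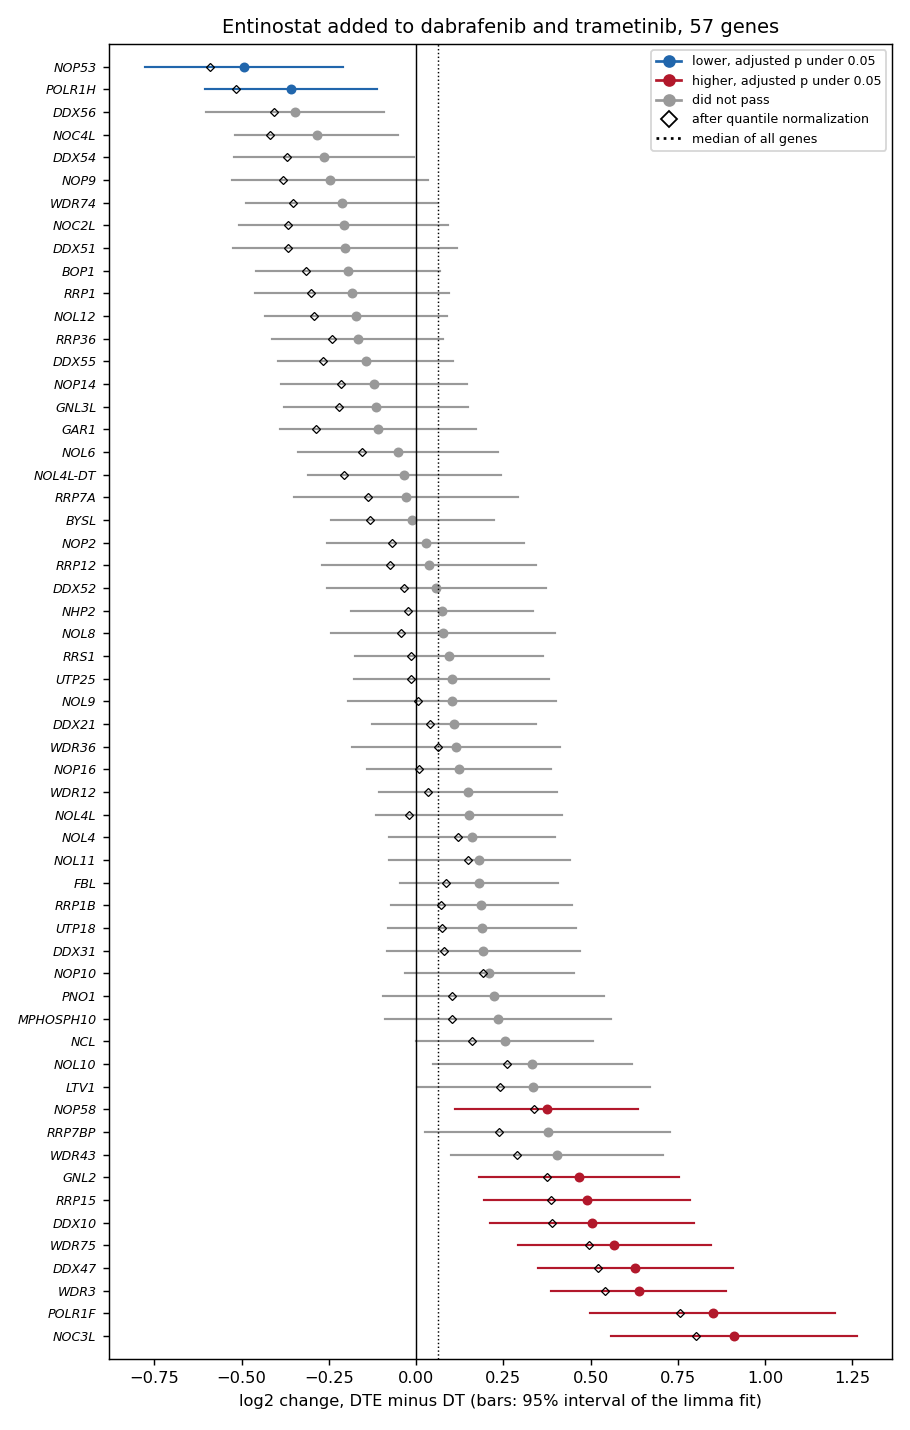
The log2 change in DTE against DT for the 57 genes, in order of size, with 95% limma intervals (filled points) and values after quantile normalization (open diamonds). NOC3L (0.91) and POLR1F (0.85) have the highest values, NOP53 (-0.49) and POLR1H (-0.36) the lowest, and 46 genes did not pass.

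For several others that had fallen in DT, the estimates lay between -0.01 and 0.18. RRP12 stood at 0.04 (95% interval -0.27 to 0.34), BYSL at -0.01 (-0.24 to 0.22), NOP2 at 0.03 (-0.25 to 0.31), RRS1 at 0.09 (-0.18 to 0.36), DDX21 at 0.11 (-0.13 to 0.34), WDR12 at 0.15 (-0.11 to 0.40) and FBL at 0.18 (-0.05 to 0.41). None of these passed the test, and the intervals bound the change that could have been missed. Of the other genes listed by name, BOP1 lay below the range of -0.01 to 0.18. PNO1 and NCL lay above it, and these also did not pass.

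DTE against E asked what dabrafenib and trametinib did in cells that also received entinostat. Of the 57 genes 39 fell and none was called higher in limma, where 22.4% of all genes were called lower and 2.08% higher. At an unadjusted p under 0.05, 49 were lower (86.0%) and 0 higher, beside 33.8% and 3.45% of all genes. The DTE arrays lay wholly below E in 47 genes (35.6% of all genes) and wholly above in 1, NOL4 (3.93%). The median was -0.47 against -0.19 over all genes. BOP1 fell by 1.10 (2.14-fold, SE 0.12, adjusted p = 5.5e-06), RRP12 by 0.79 (SE 0.15, adjusted p = 0.00084), WDR43 by 0.77 (SE 0.14, adjusted p = 0.001), PNO1 by 0.73 (SE 0.15, adjusted p = 0.0021) and NOP2 by 0.70 (SE 0.13, adjusted p = 0.0012). In each, all DTE arrays lay below all E arrays. After quantile normalization 9 calls remained, where 5.84% of all genes were lower and 6.99% higher, and BOP1 (-0.80), RRP12 (-0.48), WDR43 (-0.47), PNO1 (-0.43) and NOP2 (-0.39) were among them. Centring left 14 calls, where 6.91% of all genes were lower, and it added NOL4 as higher (0.43), where 6.71% of all genes were.

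This comparison shares no array with DT against DMSO. Of the 51 genes that fell without entinostat 36 also fell with it, 70.6% of the first list and 92.3% of the 39 in the second. These shares lie near those of all 57 genes, of which 68.4% fell with entinostat and 89.5% without, so the counts alone give about this overlap. Across the 57 genes the changes correlated at r = 0.47, given as a description, since genes of 1 array share its scale. NOC3L fell by 1.17 without entinostat and stood at -0.27 with it, POLR1F changed from -0.91 to -0.33 and DDX47 from -0.75 to -0.16. In DTE against E, NOC3L was called without DTE replicate 3 (-0.48) and POLR1F without E replicate 1 (-0.50). BOP1 went the other way, from -0.71 to -1.10.

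**Figure D5:**
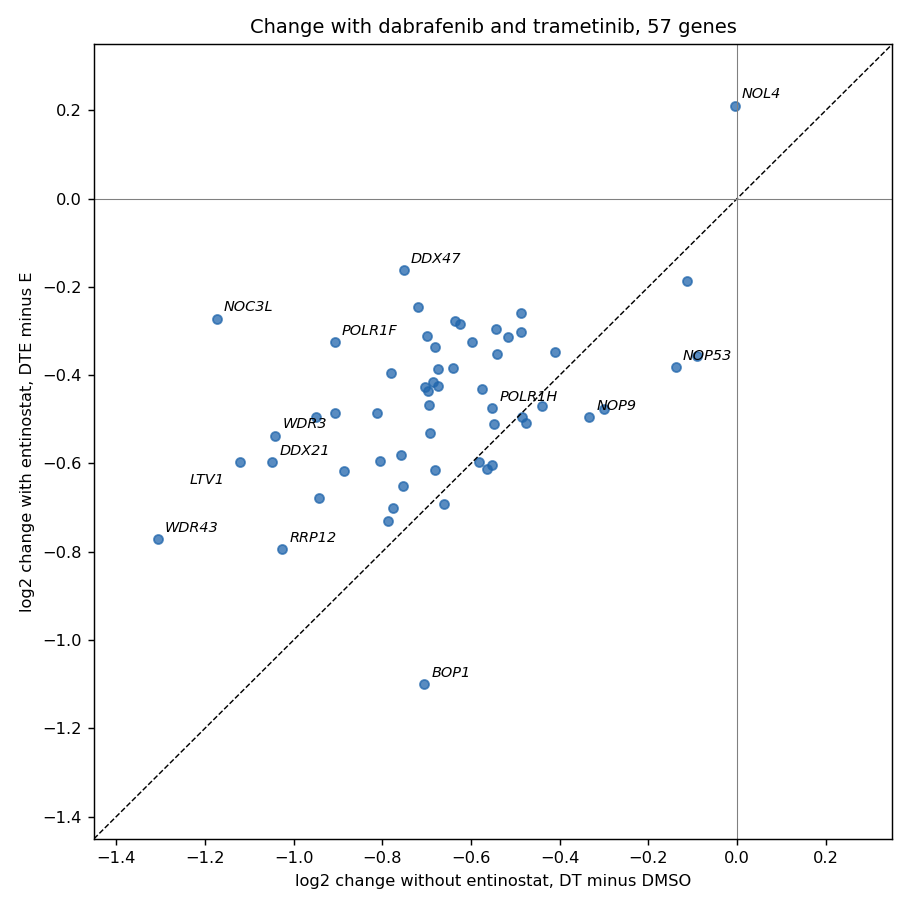
Each point is 1 of the 57 genes: across, its log2 change in DT against DMSO; up, its log2 change in DTE against E; the dashed line marks equal changes. NOC3L, POLR1F and DDX47 lie above the line and BOP1 below it.

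The difference between these 2 changes was tested gene by gene, as how far the log2 level in DTE departed from adding the DT and E effects. None of the 57 genes passed in limma, whereas 0.473% of all genes were called lower and 0.562% higher; at an unadjusted p under 0.05 there were 11 genes above zero (19.3%) and 1 below (1.75%), beside 5.42% and 6.12% of all genes. The median was 0.23, against 0.00 over all genes. NOC3L had the largest estimate, 0.90 (SE 0.24, 95% interval 0.40 to 1.40, adjusted p = 0.079). It was called after quantile normalization (0.83, adjusted p = 0.033), where 0.96% of all genes were lower and 1.19% higher. Centring (0.92, with 0.734% and 1.1% of all genes) and a variance trend with robust estimation (adjusted p = 0.038) also called it. So did the fit without DTE replicate 1 (1.03, adjusted p = 0.044), but no other fit with 1 array left out did. The NOC3L arrays in DTE were uneven, at 6.97, 7.07 and 7.64 in replicates 1 to 3. DDX47 stood at 0.59 (95% interval 0.19 to 0.99, adjusted p = 0.17), POLR1F at 0.58 (0.09 to 1.08, adjusted p = 0.33), WDR3 at 0.50 (0.15 to 0.86, adjusted p = 0.20) and BOP1 at -0.39 (-0.77 to -0.02, adjusted p = 0.40).

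Other genes of the pathway, from a list of 107 of which 81 were measured, were read in the same way. In DT 76 of the 81 fell and 1 rose. Their median was -0.65, and quantile normalization left 34 lower and 1 higher, beside 24.1% of all genes lower as deposited and 7.86% after it. All 31 large subunit factors fell, URB2 by 1.16 and NIP7 by 1.07. In the small subunit group 21 of 22 fell, WDR46 by 0.85 and HEATR1 by 0.84. Among exosome and nuclease genes, which trim the precursor, 12 of 14 fell, EXOSC4 by 1.01 and EXOSC2 by 0.84, and all 7 genes of nucleolar particle assembly fell, RUVBL1 by 0.95 and NAF1 by 0.85. Among polymerase I factors and regulators 5 of 7 fell and 1 rose: MYC, a transcription factor that acts on many of these genes, fell by 1.67, NOLC1, a nucleolar phosphoprotein, by 0.88, while POLR2F, a subunit shared by the 3 polymerases, rose by 0.40.

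In E alone 5 of the 81 fell and 1 rose, EMG1 by 0.62 and RCL1 up by 0.49, beside 3.54% and 12.5% of all genes. Quantile normalization gave 12 lower and 2 higher, beside 8.45% and 9.67% of all genes. In DTE against DMSO 61 fell, EXOSC4 by 1.59, where 22.5% of all genes fell. There were 41 lower and 2 higher after quantile normalization, where 14.2% of all genes were lower and 14.2% higher. When entinostat was added to DT, quantile normalization gave 14 of the 81 higher and 11 lower, beside 12.2% and 12% of all genes. As deposited 16 rose and 6 fell, beside 13.8% and 5.09% of all genes. RCL1, a processome factor, rose by 0.86, RPAP3, a chaperone cofactor, by 0.67 and MYC by 0.44, while EXOSC4 fell by 0.58 and DDX49, a helicase, by 0.52. MYC read 6.62, 6.71 and 6.65 in DMSO, 4.94, 5.10 and 4.93 in DT, 6.87, 6.64 and 6.83 in E, and 5.41, 5.38 and 5.50 in DTE. Its DTE arrays lay above the DT arrays and below all arrays of DMSO and E. In DTE against E 51 of the 81 fell, MYC by 1.35 and CCDC86 by 1.05, and 12 were lower after quantile normalization (22.4% of all genes fell as deposited, 5.84% after it).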

How the data were processed

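Values were taken as the authors deposited them, an intensity on a linear scale (1.88 to 8728) for every probe set. Per the submitters' processing notes RMA and the Transcriptome Analysis Console were used, and versions, a further scaling and a genome build are not given in the sources used here. Of 29396 probe sets 14748 had 1 symbol and 14648 none. Current symbols came from a match on NCBI gene ID (14748 matched), and the brightest probe set of each of 14580 genes was kept, with no filter on dim genes. Each group's mean was fitted to log2 values over all 12 arrays with limma 3.58.1 in R 4.3.3 (lmFit, eBayes), and p-values were adjusted by Benjamini-Hochberg over all genes. The fit was tested on simulated data. The number of arrays, 3 per group, limits precision. Alternatives were quantile normalization, median centring, a filter on dim genes, a replicate block and the mean of probe sets. Further alternatives were a variance trend set together with robust estimation, and leaving out each array.

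The genes and lists were chosen with earlier results of these data known. Named genes were 20 listed by name (11 measured), the extremes of each role group in DT, up to 5 called each way in a comparison, and calls against the median direction. Counts of other pathway genes stand beside up to 2 examples each way.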

Additional observations from a re-analysis of the deposited data

Results flagged for a closer look

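In 10 of the 57 genes every array moved one way when entinostat was given alone and the opposite way when it was added to dabrafenib and trametinib, each array being set against the mean of the group without entinostat. As deposited 6.01% of all genes showed such a pattern, against 17.5% of the 57. After quantile normalization 4 of the 10 still did (BOP1, NOL11, NOL4 and WDR43) and after median centring 0. Counted anew over the 57 genes, 7 showed the pattern after quantile normalization, where 6.09% of all genes did. After median centring 8 of the 57 showed it, where 4.94% of all genes did. Which genes showed the pattern thus depended on the scale. That opposition itself was not tested. The departure from additivity was tested by limma, and none of the 10 passed (adjusted p from 0.224 to 0.654). BOP1 lay above DMSO in E and below DT in DTE, with a departure of -0.39 on the log2 scale. The other genes lay below DMSO in E and above DT in DTE, with these departures on the log2 scale: DDX21 at 0.45, NOL11 at 0.34, NOL4 at 0.22, NOL9 at 0.29, NOP16 at 0.27, RRP1B at 0.33, RRS1 at 0.27, WDR12 at 0.28 and WDR43 at 0.53. These include NOL11, NOL9, NOP16 and RRP1B, named here for this pattern, and NOL4, which was not shown to lie above background.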

How the results depend on the processing

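Among the 57 genes, none of those named by the rule changed direction in a comparison where it was called, under the alternatives run. Of the other pathway genes named, DDX49, called lower in DT against DMSO (-0.36), stood at 0.01 after quantile normalization. After quantile normalization the number of genes called lower was 29 in DT against DMSO, 10 in E against DMSO, 8 in DTE against DT and 9 in DTE against E. The median change was then -0.31, -0.31, -0.016 and -0.18 in DT against DMSO, DTE against DMSO, DTE against DT and DTE against E, so that in DTE against DT its sign turned (0.10 as deposited). After median centring 25, 14 and 14 genes were called lower in E against DMSO, DTE against DT and DTE against E, 5 were called higher in DTE against DT and 1 in DTE against E, and the medians were -0.48 in DT against DMSO, -0.32 in E against DMSO, -0.072 in DTE against DT and -0.25 in DTE against E. The filter on dim genes gave 5 lower in E against DMSO. For the departure from additivity 1 gene, NOC3L, was called higher after quantile normalization and after centring. It was also called with the variance trend and robust estimation, and with the replicate block.

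With 1 array left out, the genes called lower numbered 46 to 52 in DT against DMSO, 0 to 4 in E against DMSO, 36 to 47 in DTE against DMSO, 0 to 2 in DTE against DT and 28 to 40 in DTE against E, those called higher 6 to 12 in DTE against DT and 0 to 1 for the departure from additivity. Whether the replicate numbers pair the arrays was not settled. Deviations of the 18 same-numbered pairs correlated at a median of 0.05 (range -0.10 to 0.17), and 3 exceeded 0.1. Over the 36 other pairs the median was -0.03. Such correlations leave out a shift shared by all genes of an array. Replicate 2 had the highest array median in every group (4.80, 4.60, 4.90 and 4.69 in DMSO, DT, E and DTE). The replicate block gave 51, 3, 45 and 39 genes called lower in DT, E and DTE against DMSO and DTE against E, and 10 higher in DTE against DT. The block ended no call among the named genes, and it added WDR43 in DTE against DT and NOC3L for additivity. Using the mean of probe sets changed no count of these genes. Each of them has 1 probe set, so this setting left their values as they were and was no test of them. Signal over background was not available per probe set, which limits what can be said of dim genes such as NOL4.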
